A study of Mus musculus with 12 samples.

Results

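The 39 Hox genes of the Hoxa, Hoxb, Hoxc and Hoxd clusters were followed in RNA-seq of mouse brain at embryonic day E15.5. They are all genes of both count tables whose symbol is Hox, a cluster letter and a paralog number, and they make up 39 of the 46078 genes listed. Brains came from wild-type (WT) embryos and from Nsd2 knockout (KO) embryos on the C57BL/6 background, with 3 libraries each for WT males, KO males, WT females and KO females, 12 in all. The KO allele, made by CRISPR/Cas9, lacks the entire Nsd2 coding region, and the deletion is not limited to a tissue. Nsd2 encodes a methyltransferase that places mono- and dimethyl marks on lysine 36 of histone H3, and the study asked what its loss does to transcription in the embryonic brain. No treatment was given, and the borders of the dissected tissue are not given in the sources used here.

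Hox genes encode homeodomain transcription factors that tell cells where they lie along the head-to-tail axis. Within each cluster the genes stand in the order in which they are used: genes of low paralog number lie at the 3′ end and are switched on in the anterior hindbrain, whereas those of high number lie at the 5′ end and are used in the trunk and tail. In the nervous system they are silent in the forebrain and midbrain, where Polycomb proteins keep the clusters closed, and they pattern the hindbrain and spinal cord together with their cofactors of the Pbx and Meis families.

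In the GENCODE M21 annotation of GRCm38, the 11 Hoxa genes span chr6:52155590-52260880 on the minus strand. The 10 Hoxb genes span chr11:96194316-96368256, the 9 Hoxc genes chr15:102921103-103036852 and the 9 Hoxd genes chr2:74668310-74765142, all on the plus strand. The clusters are 105.3, 173.9, 115.8 and 96.8 kb long. Some members share exonic sequence with a neighbour, so their counts cannot be cleanly separated. Hoxd3 shares 62.3% and Hoxd4 52.3% of its exonic length with other genes on the same strand, among them each other. Hoxb3 has 52.9%, Hoxa11 35.0%, Hoxb2 27.3% and Hoxa3 25.4% of its exonic length opposite antisense genes, and whether strand was used in the counting is not stated.

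Libraries held 40398665 to 59304196 counts. The counts of Nsd2, listed as Whsc1, matched the labels, with 348 to 410 CPM in the 6 WT libraries and 0.905 to 2.67 CPM in the 6 KO libraries. Mitochondrially encoded genes took 1.59% to 7.10% of counts. CPM, the count of a gene set against the size of its library, was computed with library sizes scaled by TMM.

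The Hox genes were not at a common level in these brains. Their summed level was 26.7, 238 and 278 CPM in WT males 1, 2 and 3. In KO males 1, 2 and 3 it was 7.86, 74.4 and 1.16 CPM. In WT females it was 2.94, 1.23 and 277 CPM, and in KO females 6.62, 299 and 269.5 CPM. The 5 libraries WT male 2, WT male 3, WT female 3, KO female 2 and KO female 3 thus lay within 238 to 299 CPM, KO male 2 and WT male 1 lay below them, and the other 5 lay below 8 CPM. WT males, WT females and KO females each held libraries within and below this range, KO males held none within it, and the genotypes overlapped in both sexes. In bulk RNA, fewer cells of a Hox-expressing type and less Hox RNA per cell cannot be told apart.

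**Figure D1:**
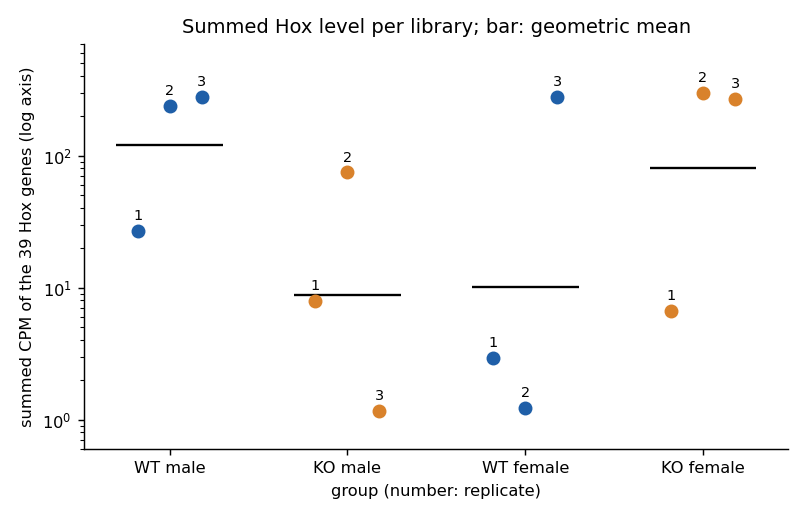
Summed CPM of the 39 Hox genes in each library on a log axis, by group, with the replicate number beside each point and the geometric mean of each group as a bar (n = 3). Each group spans at least the distance from 26.7 to 278 CPM seen in WT males, and WT and KO libraries overlap in both sexes.

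The number of Hox genes above 1 CPM followed the summed level. It was 6, 20 and 19 in WT males, 2, 13 and 0 in KO males, 0, 0 and 16 in WT females, and 2, 20 and 19 in KO females. Over the 12 libraries, 21 of the 39 genes passed 1 CPM at least once and 10 passed 10 CPM. Another 11 had counts but stayed at or below 1 CPM, and 7 had no count in any library, namely Hoxa11, Hoxc10, Hoxc11, Hoxc12, Hoxd10, Hoxd11 and Hoxd12. By position along the axis, 6 of the 8 genes of paralog groups 1 to 3, 14 of the 15 genes of groups 4 to 8 and 1 of the 16 genes of groups 9 to 13 passed 1 CPM.

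**Figure D2:**
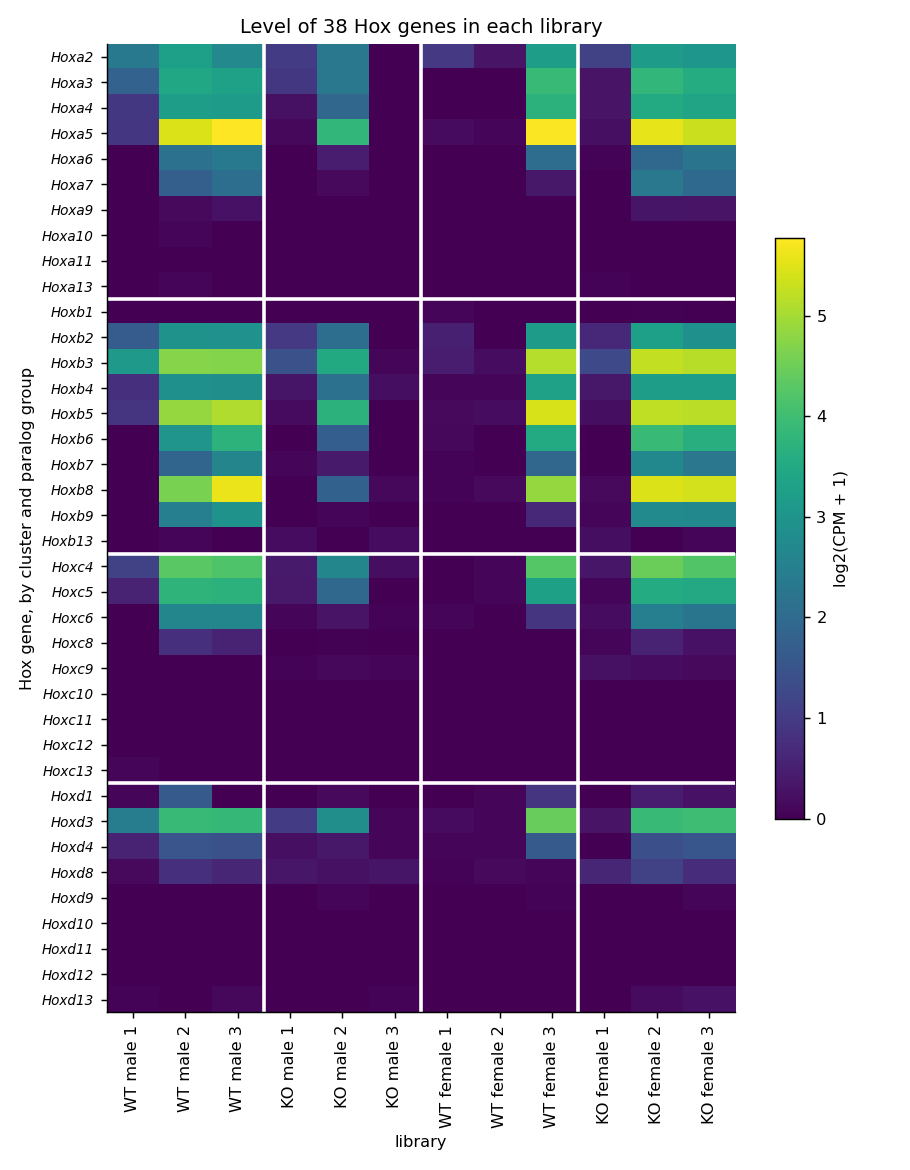
Level of 38 Hox genes (rows, by cluster and paralog number) in the 12 libraries (columns), as log2(CPM + 1). Most genes of paralog groups 2 to 8 are coloured in the 5 libraries with 238 to 299 CPM of summed Hox RNA, and groups 10 to 13 are near 0 in all 12.

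The genes of paralog groups 1 to 3, which pattern the anterior hindbrain, included the members above 1 CPM in the most libraries. Hoxa2, the anterior-most expressed Hox gene of the hindbrain, was above 1 CPM in 9 libraries. It stood at 226, 510 and 311 counts in WT males, 58, 223 and 0 in KO males, 52, 9 and 504 in WT females, and 53, 341 and 383 in KO females. Hoxb3, which acts in the posterior rhombomeres, was also above 1 CPM in 9 libraries, from 0.0512 CPM in KO male 3 to 36.8 CPM in KO female 2. The low libraries therefore differed among themselves, since KO male 1, KO female 1 and WT female 1 kept 52 to 58 Hoxa2 counts where KO male 3 had none.

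WT male 1 stood between the other libraries, with mainly the anterior genes. It had 436 counts of Hoxb3, 245 of Hoxd3 and 226 of Hoxa2, but 49 of Hoxa5, 46 of Hoxb5 and 0 of Hoxa6, Hoxa7, Hoxb6, Hoxb7, Hoxb8, Hoxb9 and Hoxc6. Genes of groups 1 to 3 took 78.6% of its Hox counts (95% exact binomial interval 76.4% to 80.6%, counting error only). These groups also took most Hox counts in WT female 1 with 79.0%, KO male 1 with 73.6% and KO female 1 with 60.7%, on 162 to 444 Hox counts. In the 5 libraries with the highest summed level they took 21.6% to 31.1%, and in KO male 2 37.9% (36.4% to 39.4%).

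Among the group 1 genes, Hoxb1, which marks a hindbrain segment, had 3 counts in WT female 1, 1 in KO female 2 and 0 in the other 10 libraries. Hoxd1 passed 1 CPM in WT male 2 alone and was uneven among libraries with similar Hox totals, at 127 counts in WT male 2, 52 in WT female 3, 15 and 12 in KO females 2 and 3, and 0 in WT male 3.

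Paralog groups 4 and 5 act in the caudal medulla and cervical spinal cord, and Hoxa5 and Hoxb5 had the highest mean CPM of the Hox genes. Hoxa5 had the highest mean level of all 39 genes, 20.8 CPM. It was at 0.870, 43.6 and 53.8 CPM in WT males, 0.0885, 13.2 and 0 in KO males, 0.127, 0.0754 and 52.9 in WT females, and 0.182, 46.2 and 38.5 in KO females. Hoxb5 followed the same libraries, with 0.817, 28.3 and 33.1 CPM in WT males, 0.124, 12.2 and 0 in KO males, 0.109, 0.151 and 42.1 in WT females, and 0.160, 36.3 and 35.3 in KO females. For both genes the same 5 libraries were highest, KO male 2 was sixth and the rest lay below 1 CPM.

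Hoxc4 led its cluster, with 1.21, 18.6 and 17.3 CPM in WT males and 0.336, 5.31 and 0.154 in KO males. In females it stood at 0, 0.0754 and 18.1 CPM in WT and 0.274, 21.4 and 17.6 in KO. Hoxd3 led the Hoxd cluster, with 245, 845 and 742 counts in WT males, 56, 354 and 4 in KO males, 7, 3 and 1234 in WT females and 10, 594 and 790 in KO females. Each leading gene was thus high in the same libraries, whichever of the 4 chromosomes it lies on.

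Of groups 6 to 8, which pattern the brachial and thoracic cord, Hoxb8 was by far the most abundant. It had 0, 1412 and 2678 counts in WT males, 0, 139 and 5 in KO males, 2, 4 and 1674 in WT females, and 5, 1850 and 2184 in KO females. Hoxd8 did not follow it. Hoxd8 had 6, 42 and 30 counts in WT males, 16, 11 and 15 in KO males, 2, 4 and 4 in WT females, and 24, 50 and 35 in KO females. It therefore had more counts in KO male 3, where the 39 genes together had 68, than in WT female 3, where they had 16602.

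Groups 9 to 13, the most posterior genes of the clusters, were close to absent apart from Hoxb9. Hoxb9 alone passed 1 CPM, in WT males 2 and 3 (276 and 371 counts) and KO females 2 and 3 (246 and 296 counts). The highest count of any other gene of these groups was 13, for Hoxa9 in KO female 3. Hoxa13 had 6 counts, Hoxc13 4 and Hoxa10 3 over the 12 libraries. For a gene with 0 counts, such as Hoxd10, this depth allows up to 3 counts in a library taken alone.

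The DNA before the start sites of some expressed members and of a silent member is shown because the leading genes moved together across 4 chromosomes. RefSeq windows on GRCm38.p6 were held for 22 of the 39 genes (24 windows). Shown are the 250 bases before the start, 5′ to 3′ on the gene's strand, with each CpG in capitals. They are given for Hoxa13 and for the most abundant gene of each cluster with a window outside annotated exons (none for Hoxc). Hoxb5 had no window and that of Hoxd3 reaches into an exon, so Hoxb8 and Hoxd4 are shown in their place. The Hoxd4 window lies inside the annotated spans of Hoxd3 and Hoxd4. The windows are chr6:52204588-52204837 (minus strand) for Hoxa5, chr6:52260881-52261130 (minus strand) for Hoxa13, chr11:96281655-96281904 (plus strand) for Hoxb8 and chr2:74721728-74721977 (plus strand) for Hoxd4.
Hoxa5: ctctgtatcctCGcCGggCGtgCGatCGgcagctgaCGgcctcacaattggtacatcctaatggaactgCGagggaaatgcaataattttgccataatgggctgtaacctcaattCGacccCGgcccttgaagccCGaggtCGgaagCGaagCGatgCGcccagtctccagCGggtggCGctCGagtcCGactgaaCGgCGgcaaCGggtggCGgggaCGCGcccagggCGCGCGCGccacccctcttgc
Hoxa13: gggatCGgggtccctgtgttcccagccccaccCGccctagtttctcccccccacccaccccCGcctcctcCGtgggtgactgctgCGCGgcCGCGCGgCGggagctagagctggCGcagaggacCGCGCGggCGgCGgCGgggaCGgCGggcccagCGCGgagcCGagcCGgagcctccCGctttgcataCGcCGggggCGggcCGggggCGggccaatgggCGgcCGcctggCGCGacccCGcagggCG
Hoxb8: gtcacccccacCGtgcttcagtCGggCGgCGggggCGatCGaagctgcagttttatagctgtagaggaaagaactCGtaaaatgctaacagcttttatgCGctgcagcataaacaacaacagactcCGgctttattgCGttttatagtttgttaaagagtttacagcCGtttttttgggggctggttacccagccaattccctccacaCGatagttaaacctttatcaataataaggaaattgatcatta
Hoxd4: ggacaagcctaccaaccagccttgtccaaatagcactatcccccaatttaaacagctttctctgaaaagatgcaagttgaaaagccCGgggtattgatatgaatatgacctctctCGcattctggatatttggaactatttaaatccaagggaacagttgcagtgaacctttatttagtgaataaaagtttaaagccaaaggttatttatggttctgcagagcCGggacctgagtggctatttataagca

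The 24 Hox windows held 2 to 35 CpG, with a median of 12.5, against a median of 6 over 32841 windows of all genes. Among the 4 windows shown, Hoxa13, with 6 counts in all, had 35 CpG, against 28 for Hoxa5, 12 for Hoxb8 and 3 for Hoxd4. As Hoxa13 was picked for its CpG number, this order says nothing about CpG and level in general. Of the genes with no counts, Hoxa11 had 13 CpG, Hoxd10 20, Hoxd12 10 and the windows of Hoxd11 2 and 20. The TATA box letters TATAAA, read on both strands, were in 4 of the 24 Hox windows (16.7%) and 12.4% of all windows. The letters TGATNNAT, bound by Pbx and Hox proteins together, were in 4 Hox windows (16.7%) and 7.69% of all. The nuclear receptor letters AGGTCA, which retinoic acid receptors can bind, were in 6 (25.0%) and 14.03%. These counts describe letters in short windows and were not tested.

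Per kilobase of exon, the order of paralogs was the same across libraries for groups 2, 3 and 5. In the 7 libraries with 1504 Hox counts or more, Hoxa5 was above Hoxb5 and Hoxb5 above Hoxc5 in 7 of 7, Hoxb3 was above Hoxd3 and Hoxd3 above Hoxa3 in 7 of 7, and Hoxa2 was above Hoxb2 in 7 of 7. In WT male 3 the levels of Hoxa5, Hoxb5 and Hoxc5 were 28.7, 11.9 and 3.91 CPM per kb, and in KO female 3 they were 20.5, 12.7 and 3.33. In group 4, Hoxc4 was above Hoxa4 in 5 of the 7 and below it in WT male 1 and WT female 3, with Hoxb4 and then Hoxd4 lowest in all 7. These libraries include WT and KO of both sexes, and the order is a description with no test.

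The clusters took similar shares of the Hox counts in the libraries with many of them. In the 5 highest libraries Hoxb genes took 44.1% to 54.4%, Hoxa genes 27.1% to 32.9%, Hoxc genes 9.96% to 15.6% and Hoxd genes 5.61% to 8.55%. In the 4 libraries where groups 1 to 3 took most Hox counts the shares were uneven, since Hoxd genes took 18.8% in WT male 1, 18.5% in KO male 1, 7.41% in WT female 1 and 11.7% in KO female 1. Per kilobase, the 12 libraries together gave Hoxa 39.2% and Hoxb 44.5% of the summed level, against 30.4% and 50.1% in CPM.

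The 6 libraries with most Hox RNA, KO male 2 with 74.4 CPM and the others with 238 to 299 CPM, differed in how far toward the tail their Hox genes reached. In WT female 3, Hoxb9 had 34 counts and Hoxb5 2516, so Hoxb9 made up 1.33% (95% exact interval 0.925% to 1.86%) of their joint counts. The share was 14.05% (12.5% to 15.7%) in WT male 2, 16.7% (15.2% to 18.3%) in WT male 3, 13.8% (12.2% to 15.46%) in KO female 2 and 13.5% (12.1% to 15.03%) in KO female 3. It was 0.580% (0.158% to 1.48%) in KO male 2. WT female 3 and KO male 2 thus stood apart from the other 4 beyond counting error.

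The same 2 libraries were low for the posterior genes of the Hoxa and Hoxc clusters. Hoxa7 made up 0.565% of the joint counts with Hoxa5 in WT female 3 and 0.803% in KO male 2, against 5.17% to 7.87% in the other 4. Hoxc6 made up 4.50% of the joint counts with Hoxc4 in WT female 3 and 4.17% in KO male 2, against 17.4% to 23.4%. For Hoxb8 against Hoxb5 they parted, since WT female 3 had 39.95% (38.5% to 41.5%) and KO male 2 16.8% (14.4% to 19.6%), with 45.5% to 59.1% in the other 4. Both genotypes occurred on either side, and as these libraries were set apart by their Hox counts no test of genotype was made on them.

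**Figure D3:**
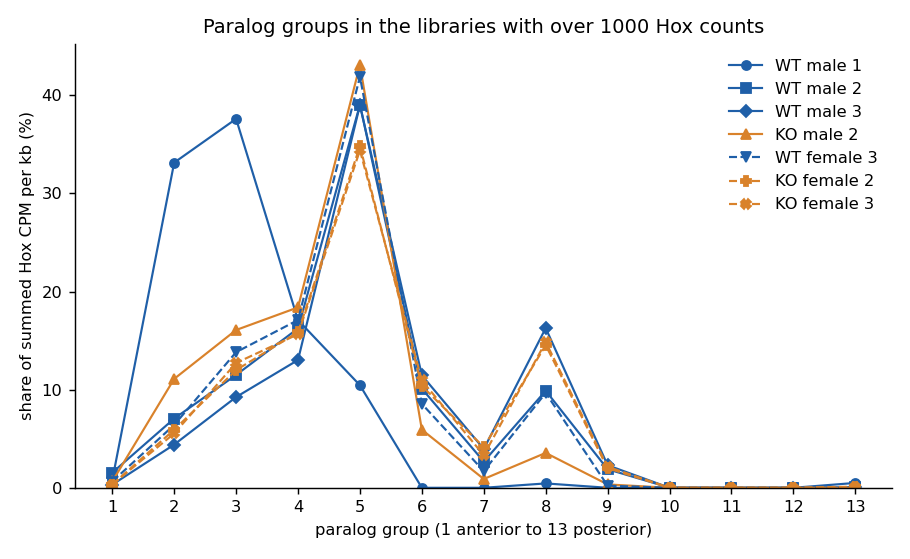
Share of each paralog group in the summed Hox CPM per kb (y axis, percent) against paralog number (x axis) in the 7 libraries with 1504 Hox counts or more, WT in blue and KO in orange, males with solid and females with dashed lines. Group 5 peaks at 34.4% to 43.1% in 6 libraries, while WT male 1 peaks at group 3 with 37.6%.

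Markers of hindbrain neurons moved in part with the Hox level. Lbx1, of dorsal hindbrain and spinal interneurons, was at 4.65, 10.5 and 11.9 CPM in WT males, 1.82, 4.62 and 0.171 in KO males, 3.18, 0.201 and 13.2 in WT females and 2.19, 11.6 and 12.2 in KO females. The serotonergic genes Fev, Tph2 and Slc6a4, which mark the raphe, did not line up with the Hox genes, as Slc6a4 was at 1.18 CPM in WT male 3 and 8.99 CPM in WT male 1.

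As a whole list, 5 of the 12 hindbrain markers were among the 1% of genes with the highest spread within groups. Their summed level was 73.7 to 111 CPM in WT males, 63.1 to 95.5 in KO males, 66.2 to 153 in WT females and 71.3 to 120 in KO females, with Atoh1 at 0 in WT female 2 and Ptf1a at 0 in KO female 1. The 7 motor neuron markers summed to 22.6 to 39.7, 26.8 to 30.1, 11.99 to 42.2 and 31.5 to 38.1 CPM in the same order of groups. Mnx1, which defines somatic motor neurons, had 6 to 16 counts in the 5 highest libraries and 0 in the other 7. Isl1, the most abundant of the 7 markers, did not line up with the Hox level. It was at 16.1, 19.6 and 22.3 CPM in WT males and 25.9, 17.0 and 27.2 in KO males. In females it stood at 4.32, 28.9 and 24.5 CPM in WT and 27.1, 23.7 and 27.1 in KO. The 9 sensory ganglion markers in the tables summed to 50.2 to 188, 51.0 to 71.0, 65.1 to 122 and 46.1 to 103 CPM. The 11 forebrain markers were well above these in each library, at 715 to 1323 CPM. None of the marker lists had a member past the test in either sex or over both, and the part of tissue composition in the Hox levels was not tested.

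Within males and within females, KO was tested against WT with the quasi-likelihood test of edgeR and Benjamini-Hochberg adjustment over all genes tested and a threshold of 0.05. In males 19 of the 39 Hox genes had enough counts to be tested, and 0 passed, with 2 below an unadjusted p of 0.05, as were 11.9% of all genes. The share called over all 18672 genes was 0.466%. The log2 fold changes of KO over WT ranged from -4.95 to -0.87 with a median of -2.56, against -0.01 over all genes. The SEs of these values were 0.59 to 2.45, so large differences of the means were not distinguishable from the spread among replicates.

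The most abundant gene of each cluster was lower in KO males in the mean but did not pass. For Hoxa5 the log2 ratio was -2.89 (SE 2.32, edgeR adjusted p = 0.686). The values were -2.34 for Hoxb5 (SE 2.23, adjusted p = 0.740), -2.68 for Hoxc4 (SE 1.67, adjusted p = 0.592) and -2.11 for Hoxd3 (SE 1.34, adjusted p = 0.593). Without KO male 2 they were -9.48 for Hoxa5, -8.35 for Hoxb5, -5.64 for Hoxc4 and -4.32 for Hoxd3. Among the tested genes the KO libraries lay below the 3 WT libraries without overlap for Hoxa2 and Hoxd4, which is 2 of 19 against 17.3% of all tested genes. For the other 17 the groups overlapped. Hoxd4 had 27, 111 and 95 counts in WT males and 10, 17 and 3 in KO males (log2 fold change -2.92, SE 0.68, edgeR adjusted p = 0.183). In DESeq2, which called 2.59% of all genes in males, it passed with an adjusted p of 0.00129, and it shares 52.3% of its exonic length with other genes.

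Leaving out WT male 1 changed the male calls. Without it, Hoxb9, Hoxc6, Hoxc8 and Hoxa7 passed as lower in KO in edgeR, with adjusted p = 0.0123, 0.0123, 0.0256 and 0.0451, in a fit that called 0.601% of all genes. The library left out is the WT male with 0 counts of these genes. Hoxb9, Hoxc8 and Hoxa7 were not among the 19 genes tested with all libraries and passed the filter through the 2 WT libraries that are high, so their calls are no support for a difference. Hoxc6 was at 313 and 294 counts in the same 2 WT libraries, and with all libraries its edgeR adjusted p was 0.405. Its call arose by leaving out the WT male with 0 counts and is no support either.

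In females 22 Hox genes were tested, and 0 passed, with 1 below an unadjusted p of 0.05, as were 7.48% of all genes. The share called over all 18710 genes was 0.0214%. The log2 fold changes ran from -0.71 to 4.35 with a median of 0.95, against 0.01 over all genes. Above 0 were 21 of the 22, which share their high libraries, and 9647 of all 18710 genes. The direction was thus the opposite of that in males, with SEs of 0.53 to 2.47. Hoxa5 stood at 0.68 (SE 2.47, adjusted p = 0.963), Hoxb5 at 0.76 (SE 2.41, adjusted p = 0.958), Hoxc4 at 1.10 (SE 2.30, adjusted p = 0.936) and Hoxd3 at 0.47 (SE 2.21, adjusted p = 0.972). These values rested on single libraries. Without WT female 1 they were 0.09 for Hoxa5, 0.18 for Hoxb5, 0.51 for Hoxc4 and -0.11 for Hoxd3. Without WT female 3 they were 8.03, 7.52, 8.55 and 6.48 in the same order. Hoxd3 stood at -0.10 without WT female 2.

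Hoxd8 was the gene whose female groups did not overlap, 1 of 22 against 14.0% of all tested genes. It had 2, 4 and 4 counts in WT and 24, 50 and 35 in KO females, which was 3.54 on the log2 scale (SE 0.53, edgeR adjusted p = 0.157, unadjusted p = 0.000151). Hoxd8 passed the filter of the female fit through its KO libraries alone. Neither its fold change nor the lack of overlap in females is therefore support for a difference. In males the Hoxd8 groups overlapped, with 6, 42 and 30 counts in WT and 16, 11 and 15 in KO and -0.87 on that scale (SE 0.59, adjusted p = 0.593).

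**Figure D4:**
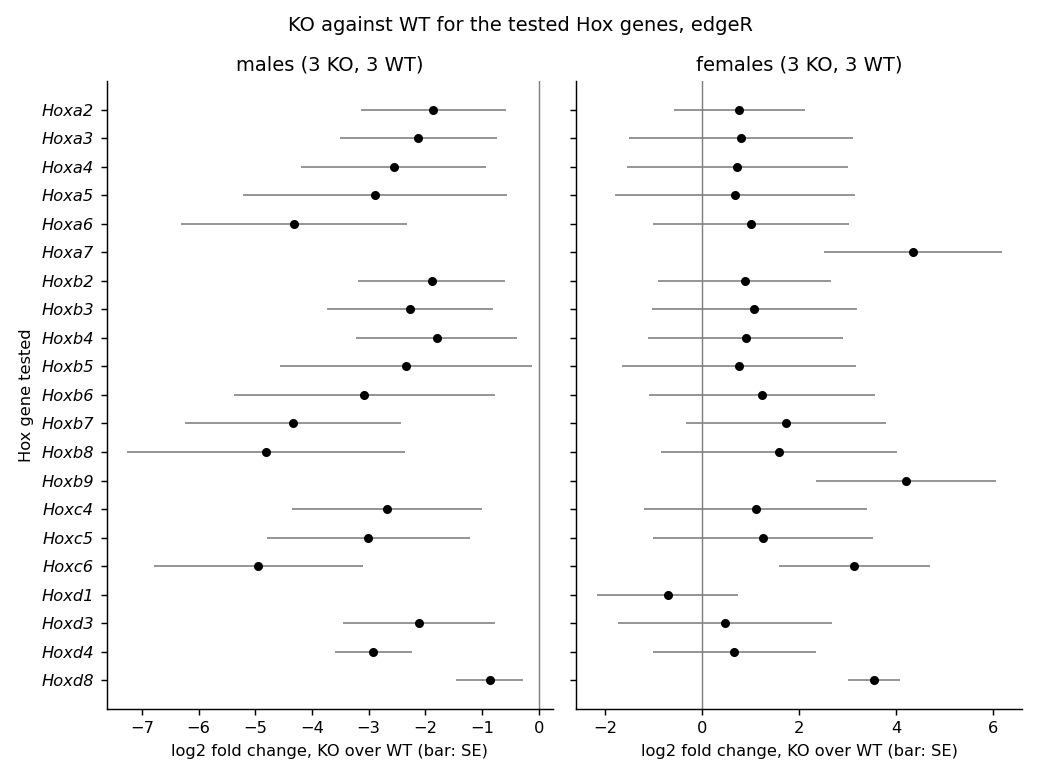
Log2 fold change of KO over WT (x axis) with its SE for 18 Hox genes tested in males and 21 in females, from edgeR. All 18 points lie below 0 in males and 20 of 21 above 0 in females, and none passed the adjusted threshold.

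Over both sexes, with sex as a covariate, 24 Hox genes were tested and 0 passed, where 1.9% of all 19768 genes were called. None of the 24 was below an unadjusted p of 0.05, against 13.7% of all genes. The median log2 fold change was -0.68, against 0.00224 over all genes. Hoxa5 stood at -1.07 (SE 1.997, adjusted p = 0.879), Hoxb5 at -0.76 (SE 1.85, adjusted p = 0.909), Hoxc4 at -0.73 (SE 1.75, adjusted p = 0.906) and Hoxd3 at -0.80 (SE 1.44, adjusted p = 0.875). DESeq2 called 0 as well.

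Whether the KO effect differed by sex was put to an interaction test. The female minus male difference of the log2 fold changes was above 0 for 24 of the 24 Hox genes and for 10840 of all 19768 genes. The median was 3.67 against 0.03 over all genes, and edgeR called 0 of the 24 and 0.0% of all genes. Most Hox genes were high in the same libraries, so their common sign is not 24 separate results. At an unadjusted p under 0.05 in edgeR there were 6 Hox genes (25.0%) and 880 genes in all (4.45%). Of these 6, Hoxa7, Hoxa9, Hoxb9, Hoxc6 and Hoxc8 were each highest in WT males 2 and 3 and KO females 2 and 3. They are thus not separate results. DESeq2 called 5 genes in all, 0.0253%, of which Hoxc8 (adjusted p = 0.0147) and Hoxd8 (adjusted p = 0.0323) were Hox genes. In edgeR both had an adjusted p of 0.91, with a difference of 4.42 for Hoxd8 (SE 0.88), while Hoxc8 was at 0 in all WT females and its fitted value is not given. Hoxc8 had 44 and 26 counts in WT males 2 and 3, 21 and 12 in KO females 2 and 3, and 0 to 3 in the other 8 libraries. It passed the filter only through these WT male and KO female libraries, so its call is no support for a difference.

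As a sum, the Hox level on the log2 scale was 6.92 ± 1.89 in WT and 3.14 ± 3.005 in KO males (SD, n = 3), a difference of -3.78 (exact permutation test, two-sided, p = 0.2). In females it was 3.32 ± 4.20 in WT and 6.34 ± 3.13 in KO (SD, n = 3), a difference of 3.02 (exact permutation test, two-sided, p = 0.3). With 3 libraries against 3, 0.1 is the smallest p these tests can give. Permuting genotype within sex over all 12 libraries, the difference was -0.38 (exact permutation test, two-sided, p = 0.85, smallest possible 0.005). It changed sign without KO male 3 (0.35), WT female 3 (0.81) or KO female 1 (0.52).

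The spread among replicates of a group was far larger for Hox genes than for most genes. The within-group SD of log2 CPM, pooled over the 4 groups, had a median of 2.98 over the 24 tested Hox genes (0.74 to 4.64) and 0.19 over all 19768 genes. Its 99th percentile over all genes was 1.44, and 20 of the 24 Hox genes lay above it, as did 198 genes in all. The highest Hox values were 4.64 for Hoxb8, 4.33 for Hoxb6, 4.33 for Hoxa5 and 4.12 for Hoxb5, which ranked 2, 7, 8 and 11 of all genes. Of the 4 Hox genes below the 99th percentile, Hoxc8 had 1.33, Hoxa9 1.10 and Hoxd8 0.74.

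**Figure D5:**
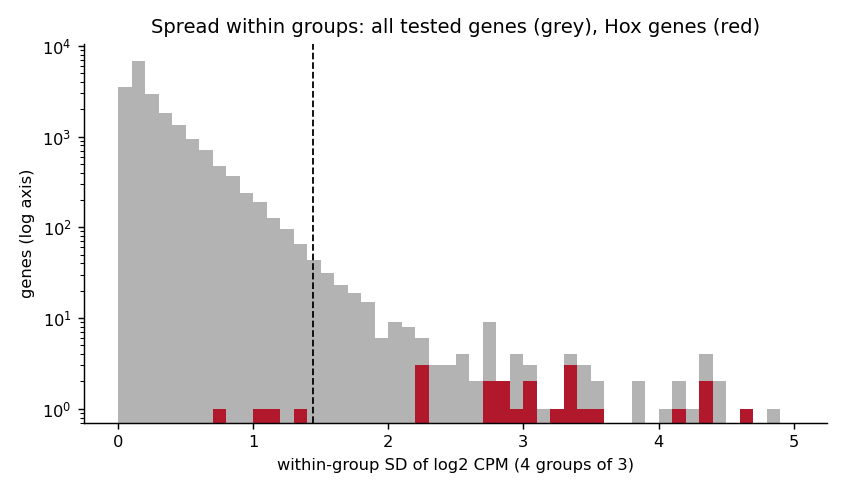
Number of genes (y axis, log scale) by within-group SD of log2 CPM (x axis), for all 19768 tested genes in grey and the 24 tested Hox genes in red, with the 99th percentile of all genes as a dashed line. Most Hox genes sit right of the line at 1.44, with a median of 2.98 against 0.19 for all genes.

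Some other genes inside the clusters, most of them noncoding, were high in the libraries rich in Hox RNA. Of 46 genes that lie there and are no members, 20 had no counts and 4 passed 1 CPM, which were Gm28230, Hoxaas2, Hoxaas3 and Hoxb3os. Of the 10 tested over both sexes, 8 were among the 1% of genes with the highest within-group SD, while Gm11539, at 0.205 to 0.728 CPM in the 12 libraries, had an SD of 0.35. Hoxaas3, antisense to Hoxa3 and Hoxa7, was at 0, 1.07 and 0.967 CPM in WT males, 0.0531, 0.533 and 0 in KO males, 0, 0 and 0.919 in WT females and 0.0456, 1.06 and 0.969 in KO females. Gm28230 was at 3.44 to 9.84 CPM in the 6 libraries with most Hox RNA and at 0 or 0.114 CPM in the others. It is annotated as protein-coding and shares exonic sequence with Hoxd3 and Hoxd4 on the same strand, so its counts cannot be cleanly separated from theirs. None of the 46 passed the test in either sex or over both.

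Most genes just outside the clusters varied little within groups. The 3 nearest protein-coding genes on each side of each cluster, 24 in all, had a median within-group SD of 0.15 over the 23 tested, close to the 0.19 of all genes, and 0 of them passed the test in males, females or both. Evx1 and Evx2, homeobox genes of spinal and hindbrain interneurons that lie 52.6 kb from the Hoxa13 end and 8.8 kb from the Hoxd13 end, were detected in each library, at 1.04 to 3.65 and 3.28 to 8.05 CPM. Skap2, a signalling adaptor 143 kb from the 3′ end of the Hoxa cluster, had a within-group SD of 0.62, the highest of the 23 tested. It was at 2.86, 6.36 and 5.60 CPM in WT males, 2.62, 3.28 and 2.68 in KO males, 2.78, 1.84 and 6.27 in WT females and 2.40, 5.03 and 4.31 in KO females, so the 5 libraries highest in Hox RNA were also its highest.

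Partners and regulators of the Hox genes were steadier than the Hox genes. The 9 TALE cofactors, which bind DNA with Hox proteins, were all expressed and 0 of 9 passed the test in males, females or both, with a median within-group SD of 0.15. Meis1 had the highest SD of the 9, 0.41, with 56.1 to 69.8 CPM in the 5 libraries highest in Hox RNA and 30.9 to 55.3 CPM in the other 7. Of the 7 factors that switch on Hox genes in the early embryo, Cdx2 and Cdx4 had no counts, 3 were tested and 0 passed.

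The retinoic acid pathway, the signal that opens the 3′ end of the clusters, had 0 of 13 tested members past the test in any of these comparisons. Its most abundant member Cyp26b1, which degrades retinoic acid, was at 29.7 to 122 CPM (log2 fold change over both sexes -0.36, adjusted p = 0.653). Of the 11 Trithorax proteins and H3K27 demethylases tested, which keep Hox genes active, 0 passed. The most abundant was Psip1, which binds methylated H3K36 (0.11, adjusted p = 0.458).

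Of the 20 Polycomb proteins, which hold Hox genes silent, 0 passed in males or females and 2 rose over both sexes, where 1.9% of all genes were called. Cbx8, a chromobox protein that reads trimethylated H3K27, passed. It was at 20.8, 16.8 and 20.03 CPM in WT males, 28.7, 25.7 and 27.6 in KO males, 24.4, 21.7 and 22.7 in WT females and 27.7, 24.3 and 30.6 in KO females, with a log2 fold change of 0.39 (SE 0.08, edgeR adjusted p = 0.0234). The adjusted p of Cbx8 rose to 0.0579 without WT male 3, 0.0673 without KO male 1, 0.0783 without KO male 3 and 0.0637 without KO female 3. The median log2 fold change of the 20 genes was 0.10, against 0.00224 over all genes.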

How the data were processed

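Whole transcriptomes of E15.5 brains were analysed, with 3 libraries for each Nsd2 genotype and sex as given by the labels. Ribosomal RNA was depleted with either of the kit versions the authors name, and which library had which is not given. Libraries were made with a directional kit. The longer reads were trimmed to the read length of the other sequencer used, and which library ran on which sequencer is not given in the sources used here. The deposited values are read counts per gene, which the authors made by trimming with cutadapt 2.6, aligning to mm10 with HISAT2 2.1.0 and quantifying Ensembl genes with StringTie 2.0.6, and they are not normalized. The strand setting of the counting is not stated. Library totals were 40398665 to 59304196 counts. PCR copies are not removed, so intervals and floors cover counting error only.

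Counts of all 46078 genes were tested with edgeR 4.0.16 (filterByExpr, TMM, robust quasi-likelihood F test) in R 4.3.3 and adjusted by Benjamini-Hochberg over all genes tested. The filter kept genes with about 10 counts or more in at least the number of libraries that a group of the fit has, and 15 in all. The fits were each sex alone, both sexes with sex as a covariate, and the interaction of both. Summed levels were compared by exact permutation tests. Log2 CPM used a prior count of 2. DESeq2 1.42.0 was an alternative, with RLE normalization, other filters, the replicate number as a block, the spread over 12 libraries and each library left out. The edgeR and DESeq2 steps were tested on simulated counts with known changes. Pairs of libraries of a group differed by more than sampling noise (chi-square per degree of freedom 23.4 to 261). The labels do not say that libraries come from separate litters, so p-values measure the spread between these libraries. Gene positions and exonic lengths came from GENCODE M21.

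Hox genes past the test, or else the most abundant member of each cluster, are named with fold change, SE and adjusted p. Of each pathway list, up to 3 called members or else the most abundant member is named. Hoxd4, Hoxd8, Hoxc8, Hoxc9, Hoxb13, Hoxd13, Skap2, Gm11539, Meis1, the Evx genes and the marker genes were named after their values were seen. A few genes and their values are not reported here. The members and lists were chosen with earlier results of these data known.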

Additional observations from a re-analysis of the deposited data

How the results depend on the processing

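The summed Hox level kept its direction in each sex under each normalization, per kilobase, with the replicate block and without any library, with differences of -5.32 to -2.32 in males and 1.505 to 5.41 in females without a library. Over both sexes it ranged from -1.15 to 0.81 when a library was left out, and it reversed without KO male 3 (0.347), WT female 3 (0.815) and KO female 1 (0.521). The count of Hox genes lower in KO males, 0, became 1 in DESeq2 (Hoxd4) and up to 4 without a library (0 to 4, the 4 without WT male 1). The count higher over both sexes, 0, became 1 with no filter (Hoxc9, adjusted p = 0.0242, with 1.07% of all genes called). The count with an interaction became 2 in DESeq2. In males the log2 fold changes of Hoxa5, Hoxb5, Hoxc4 and Hoxd3 kept their sign without any library. The log2 fold change of Hoxd3 ranged from -0.11 to 6.48 in females and from -1.24 to 0.06 over both sexes when a library was left out. It reversed in females without WT female 1 (-0.108) or WT female 2 (-0.0974) and over both sexes without WT female 3 (0.0616). The cause was not tested.

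With the replicate number as a block, 0 Hox genes passed in males, females, both sexes or the interaction, and the summed differences were unchanged (exact sign-flip p = 0.25 in males, 0.5 in females and 0.688 over both). Deviations of same-numbered WT and KO libraries correlated at -0.0529 to 0.195 across genes, and those of unlike-numbered ones at -0.225 to 0.212. These values do not show a pairing by number. With so few libraries per group they cannot settle whether same-numbered libraries share a litter or a batch. Most genes of paralog groups 9 to 13 were removed by the filter on low counts. With no filter, 31 Hox genes entered the male, 30 the female and 32 the joint test.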

Other observations

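Hoxc9, a gene of thoracic cord identity, was below the filter in each comparison and is given as values chosen after they were seen. It had 0 counts in the 6 WT libraries and 2, 5 and 3 counts in KO males and 9, 6 and 6 in KO females, 31 in all. These counts did not follow the other Hox genes, since KO male 3 had 3 counts of Hoxc9 among 68 Hox counts and WT male 3 had 0 among 15557. At most 0.205 CPM, this is near the floor of the measurement. A count of 0 allows up to 3 counts in a WT library taken alone, a bound that does not hold for all 6 at once. With no filter edgeR gave a log2 fold change of 5.45 over both sexes (SE 0.90, adjusted p = 0.0242), a value that depends on the prior count because WT is at 0.

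Hoxb13, the most 5′ gene of the Hoxb cluster, had 8, 0 and 8 counts in KO males and 7, 0 and 4 in KO females, against 3 in WT male 2 and 0 in the other 5 WT libraries. Its counts in KO were in KO male 1, KO male 3 and KO female 1, which have few other Hox counts, and in KO female 3. It was not tested under the filter. Hoxd13 had 19 counts in KO, 12 of them in KO female 3, and 7 in WT. These genes were chosen after their values were seen, and others of groups 9 to 13 went the other way. Hoxb9 had 681 counts in WT and 549 in KO, Hoxa13 4 and 2, Hoxc13 4 and 0, and Hoxa10 3 and 0. Hoxa9 had 18 in WT and 24 in KO, and Hoxd9 2 and 8.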
